A study of Homo sapiens with 47 samples.

Results

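A set of 59 genes on the short arm of human chromosome 6, in order from DUSP22 near the telomere to GLO1, was followed in the NUP58 mutant clone C6 of the HAP1 cell line. The genes were chosen by name after earlier results on these libraries had shown lower RNA levels along this stretch in C6, so the difference between C6 and wild-type cells is given below as a description and carries no test. The list holds 59 of the 57507 genes in the table, and 56 of the 59 reached the mean level of 1 FPKM needed to be compared. FPKM divides the sequenced fragments of a gene by the length of its transcript and by the fragments of the whole library, so that levels can be set side by side between genes.

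Bulk RNA was sequenced in 32 libraries of HAP1, a near-haploid line from a human chronic myeloid leukemia, and in 15 libraries of HCT116, a human colorectal carcinoma line. The HAP1 lines, with 4 libraries each, were the wild type (WT), a line transfected with Cas9 without a guide RNA (EV) and 6 clones in which CRISPR-Cas9 had mutated NUP58 (C1 to C6). NUP58 encodes a nucleoporin of the central channel of the nuclear pore, and the clones carry weakened alleles of this essential gene. Each mutant line grew from a single cell and was harvested at its earliest passage, so each is 1 clone, and a property of 1 clone cannot be told apart from an effect of its NUP58 allele. The HCT116 libraries were 4 of 1 NUP58 mutant clone and 11 of controls from 3 lines labelled WT, EV1 and EV2 (the EV lines without a guide RNA), pooled here into 1 group. The study calls the libraries of a line biological replicates. Spreads and p-values below measure the variation between the libraries of single lines. Where lines are pooled (the HCT116 controls, and C1 to C5 as a reference), differences between lines enter as well.

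The short arm of chromosome 6 carries genes of many unrelated pathways, among them a cluster of intracellular serpins, beta-tubulin genes, the butyrophilins and the major histocompatibility complex. Genes that sit side by side on a chromosome often answer to different regulators, but they share the copy number of the DNA they lie on. RNA levels of many genes follow the number of gene copies, while others are held near their level by feedback. DNA copy number was not analysed here.

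NUP58, the targeted gene, lay between 34.3 and 50.4 FPKM in WT and between 35.3 and 45 in EV, and between 7.98 and 28 in the libraries of the 6 HAP1 clones. C6 held 13 to 18.5, below every WT and EV library, as its label says. In HCT116 the clone (23.3 to 44.7) and the controls (23.9 to 50.3) overlapped, so the targeted gene did not separate the HCT116 labels, which are used here as given. The HCT116 clone library numbered 3 held the most NUP58 of its group (44.7) and a control numbered 3 the least of the controls (23.9), so HCT116 results are given with and without the libraries numbered 3. Over all genes, FPKM added up to between 604053 and 654081 in a HAP1 library and between 619798 and 721992 in an HCT116 library, and 0 pairs of libraries were identical. The number of fragments behind a value is unknown. Of 6 blood-lineage markers (PTPRC, GATA1, SPI1, CD34, MPO and HBG1), 0 reached 1 FPKM in HAP1 WT, where the highest stood at 0.0186. Of 6 markers of colon epithelium, HCT116 controls held 3 at 1 FPKM or more (EPCAM 184.0, CDH1 14.5 and CDX2 6.09), while VIL1, KRT20 and LGALS4 stayed below 1. HAP1 WT held 1 of these 6 above 1 FPKM, CDX2 at 2.79.

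The short-arm genes stood lower in C6 than in WT almost throughout. Differences are given on the scale log2(FPKM + 1), on which the median of the 56 compared genes was -0.79, with the middle of the distribution between -1.04 and -0.57. Over all 13371 genes compared the median was 0.022. In FPKM itself, the median short-arm gene held 54.7% of its WT mean in C6, and among the 45 genes with a WT mean of at least 10 FPKM the median was 51.3%. That limit was set on the WT mean, which is also the divisor, so the second median may lean low. The difference was negative in 54 of the 56. In 43 of them every C6 library lay below every WT library, where 8.39% of all genes compared did so. In 0 of them did every C6 library lie above every WT library, against 10.6% of all genes. Both shares rest on the contrast by which the genes were chosen and only describe it. The libraries of the other 13 genes overlapped. A wider reference still holds the C6 and WT libraries by which the genes were chosen, so its share also only describes the choice. When all 28 HAP1 libraries outside C6 were taken as the reference, 28 of the 56 genes were lower in every C6 library than in each of those, against 1.41% of all genes. They were SERPINB1, SERPINB9, SERPINB6, NQO2, RIPK1, TUBB2B, CDYL, LYRM4, FARS2, SNRNP48, TXNDC5, TMEM14C, ELOVL2, RANBP9, MCUR1, DTNBP1, DEK, E2F3, CDKAL1, MRS2, TDP2, GMNN, ABCF1, FLOT1, BAG6, EHMT2, RPL10A and FKBP5, so they came from both ends and the middle of the stretch. In bulk RNA, fewer cells that express a gene and less RNA per cell cannot be told apart.

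Single libraries of C6 resembled each other. The median difference of the 56 genes from the WT mean ran from -0.842 to -0.773 over the 4 C6 libraries, and each of these held 52 to 55 of the 56 genes below the WT mean. The 28 other HAP1 libraries had medians between -0.131 and 0.085. The lowest value of a gene within C6 fell in replicate 4 for 21 genes, in replicate 3 for 19, in replicate 1 for 12 and in replicate 2 for 4, and replicate 4 also held the highest value for 24 genes. Without replicate 4 of C6 the median was -0.806, and 44 genes were lower without overlap. Within WT, replicate 3 was the lowest library for 28 genes, and without it the count rose to 47. For the same genes, leaving out a library can only keep or raise this count.

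**Figure D1:**
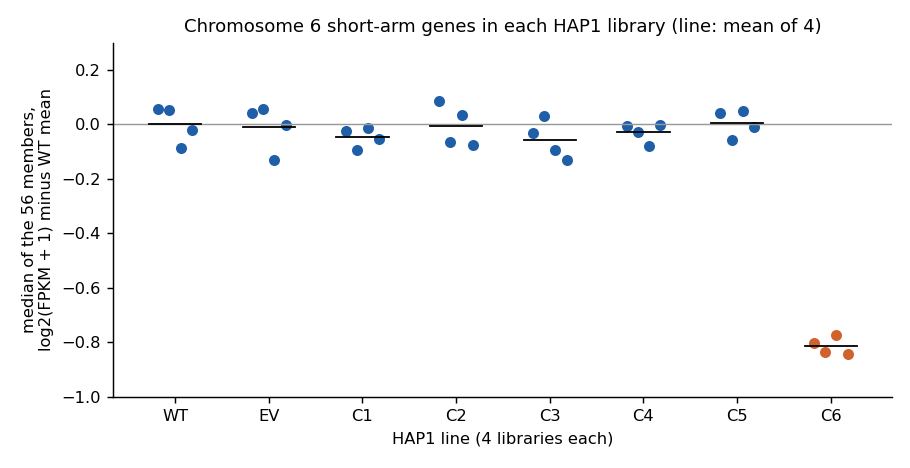
Median of the 56 short-arm genes in each HAP1 library, as the difference in log2(FPKM + 1) from the WT mean, with 4 libraries per line and a black line at their mean. The 4 C6 libraries lie between -0.842 and -0.773, and the other 28 between -0.131 and 0.085.

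The lower values covered one end of the chromosome, the stretch along which the genes had been chosen for these values. DUSP22, a dual-specificity phosphatase of the JNK pathway and the first gene of the list, starts at 291630 on chromosome 6 (GENCODE 44 positions on GRCh38), and GLO1, the last, ends at 38703145. The 211 other compared genes within this span had a median of -0.70 in C6, and 125 of them (59.2%) were lower without overlap, or 124 of 183 (67.8%) among those that encode proteins. In the 99 compared genes of the short arm beyond GLO1 the median was 0.145, with 5.05% lower and 12.1% higher without overlap. On the long arm it was 0.166 over 290 genes, with 3.79% lower and 21% higher, where 7.38% and 10.5% of the genes on other chromosomes were. By stretches of 5 Mb from the telomere, the medians of all compared genes were -0.61, -0.63, -0.68, -0.71, -0.86, -0.49, -0.82 and -0.56, and then 0.12 between 40 and 45 Mb. Chromosome 13, where NUP58 lies, was the one other chromosome with a median below -0.4 in C6 (-0.515 over 238 genes).

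The edges of the stretch were not sharp at the level of single genes. Next to DUSP22 (-0.45), EXOC2 was at -0.40 and FOXF2 at 0.00, so the outermost compared genes moved less than the median. On the centromeric side, ZFAND3 was at -1.0 with a WT mean of 35.7 FPKM and a C6 mean of 17.8, and BTBD9 was at -0.44. Past GLO1 (-0.13), SAYSD1 stood at -0.12 and KCNK5 at -0.51. The change from lower to higher values fell around the last gene of the list. The list was itself chosen along the stretch where C6 was low, so this place follows from the choice and was not tested.

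**Figure D2:**
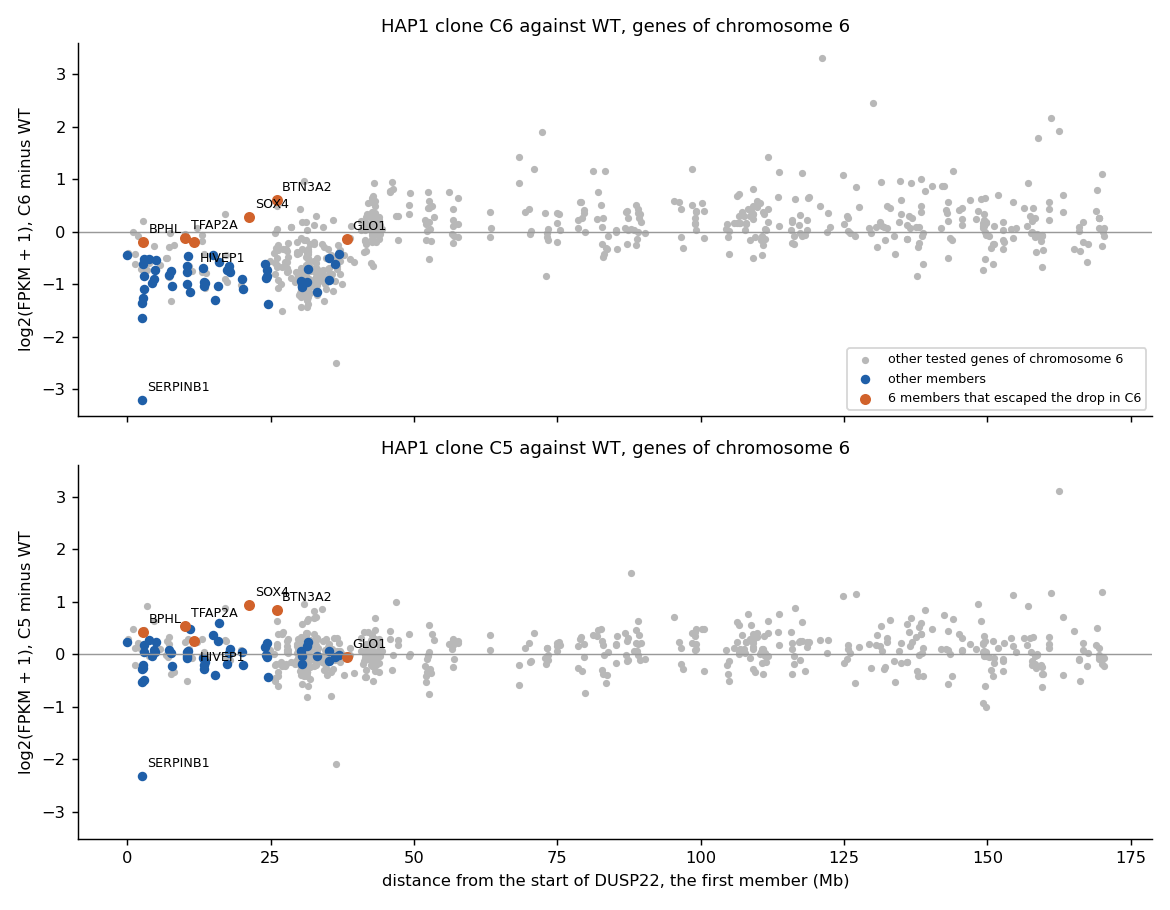
Difference from WT in log2(FPKM + 1) for every compared gene of chromosome 6 against its distance in Mb from the start of DUSP22, in C6 (top) and C5 (bottom), with the 6 genes of the list that escaped the drop in orange, the others of the list in blue and further genes in grey. In C6 the points lie mostly below 0 (median -0.79 for the list) up to GLO1 and mostly above it after, and in C5 the list has a median of 0.02.

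SERPINB1 and SERPINB9, serpins at the telomeric end, had the largest drops of the list, and the serpin SERPINB6 the fourth. SERPINB1, an intracellular inhibitor of neutrophil proteases (chromosome 6, 2832332 to 2841959, minus strand), measured 12.7, 20.7, 6.02 and 6.33 FPKM in WT and 0.181, 0.127, 0.128 and 0.386 in C6. All 4 C6 libraries were far below the lowest WT library, and the difference was -3.21 (SE 0.336). Since the C6 level lies below the pseudocount of 1, this value depends on it: with a pseudocount of 0.1 it was -5.13, and against C1 to C5 with the pseudocount of 1 it was -1.74. SERPINB9, an intracellular inhibitor of granzyme B, measured 22.1, 18.1, 8.89 and 14.9 in WT and 4.06, 4.54, 3.83 and 4.46 in C6, a difference of -1.64 (SE 0.233). SERPINB6, an intracellular serine protease inhibitor, measured 78.8, 77.1, 34.5 and 56.3 in WT and 22.4, 23.6, 18.5 and 25.3 in C6, a difference of -1.35 (SE 0.238). WT replicate 3 was the lowest WT library of all 3 genes, and none of the 3 overlapped between the lines. Their canonical coding sequences are 58.3% (SERPINB1 with SERPINB6 and with SERPINB9) and 70.6% (SERPINB6 with SERPINB9) identical, so that long stretches tell them apart.

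SERPINB1 was the one gene of the list with less than 10% of its WT mean left in C6 (1.79%), and it was also low in other clones. In the controls it averaged 11.4 ± 6.90 FPKM (WT) and 9.48 ± 4.63 (EV), with SD and n = 4 for every line. From the highest mean to the lowest, the clones measured 7.85 ± 6.27 (C3), 5.17 ± 4.16 (C4), 3.21 ± 1.87 (C1), 2.48 ± 1.68 (C2), 1.41 ± 1.06 (C5) and 0.205 ± 0.123 (C6). The spread within each of C1 to C5 was wide, and each of these clones overlapped with the next in this order, whereas C6 did not overlap with C5. The 4 C6 libraries lay below the lowest of the 20 libraries of C1 to C5 (0.474).

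5 more genes made up the 8 largest drops. GMNN, geminin, an inhibitor of DNA re-replication, averaged 86.0 ± 5.44 FPKM in WT and 32.8 ± 4.88 in C6 (SD, n = 4), with 89.1, 79.1, 84.5 and 91.4 in WT and 34.6, 32.5, 37.8 and 26.2 in C6 (-1.38, SE 0.121). DTNBP1, dysbindin, a subunit of the BLOC-1 complex of lysosome-related organelles, measured 15.9, 14.8, 13.9 and 15.1 in WT and 4.68, 5.13, 6.03 and 6.07 in C6 (-1.30, SE 0.125). For both, WT libraries were close to each other and far above every C6 library. RIPK1, a kinase of cell death and NF-kB signalling, measured 7.46, 5.44, 8.08 and 8.81 in WT against 2.20, 2.59, 3.22 and 2.05 in C6 (-1.26, SE 0.18). DAXX, a chaperone of histone variant H3.3, measured 35, 32.5, 44.7 and 42.1 against 20.4, 15.3, 17.2 and 14.3 (-1.15, SE 0.145). NEDD9, a focal adhesion scaffold protein, measured 12.7, 15.1, 16.5 and 10.8 against 5.25, 6.58, 4.06 and 7.05 (-1.14, SE 0.185).

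**Figure D3:**
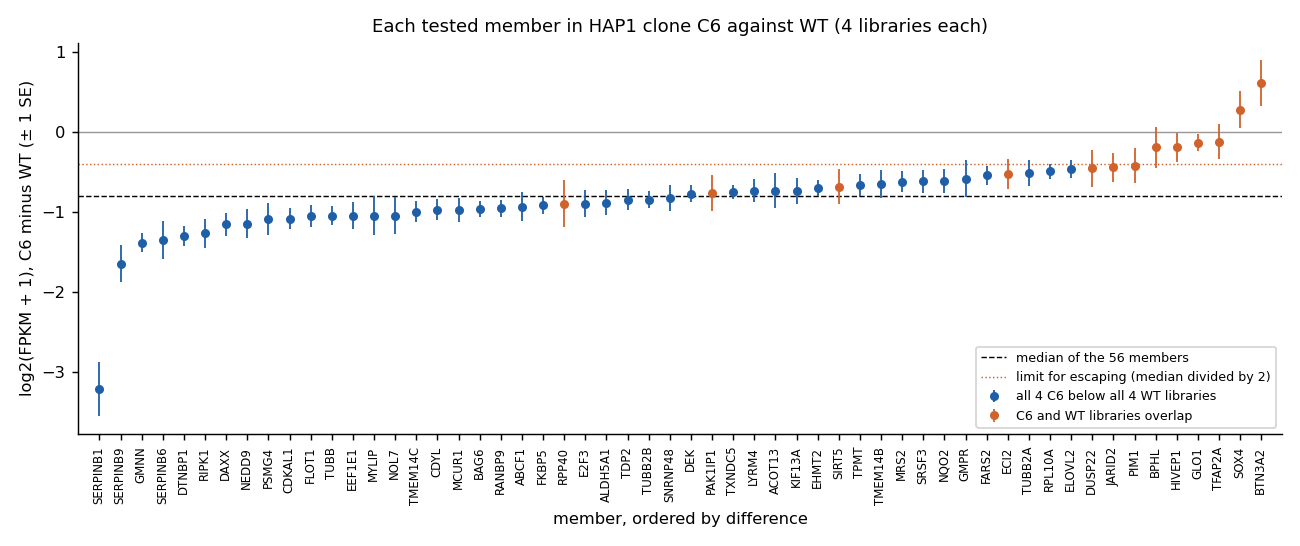
Difference of C6 from WT in log2(FPKM + 1) for the 56 compared short-arm genes in order of size, with 1 SE of the fit over 4 libraries against 4, in blue where every C6 library lay below every WT library (43 genes) and in orange where the libraries overlapped (13 genes). SERPINB1 stands at -3.21 and BTN3A2 at 0.61, and most of the rest lie near the dashed median of -0.79.

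Most of the list sat close to the median. Of the 56 genes, 44 had a difference between -1.2 and -0.4, and the standard errors ran from 0.0881 to 0.336 with a median of 0.163. The 4 genes nearest to the median were SNRNP48, a protein of the minor spliceosome (-0.82, SE 0.164), PAK1IP1, a nucleolar protein of ribosome biogenesis (-0.76, SE 0.228), DEK, a DNA-binding chromatin protein (-0.77, SE 0.106), and TDP2, a phosphodiesterase that repairs topoisomerase II breaks (-0.84, SE 0.125). DEK measured 180.7, 158.6, 141.1 and 151.5 FPKM in WT and 94.9, 91.9, 100.5 and 81.4 in C6. TDP2 measured 28.4, 22.5, 29.6 and 29.4 in WT and 16.5, 13.6, 15.7 and 13.8 in C6. For both genes every C6 library was below every WT library. PAK1IP1 overlapped, with 20.7 in WT replicate 2 and 23.8 in C6 replicate 3. The size of the difference had little relation to the WT level of a gene (across the 56 genes Spearman's rho -0.19, Pearson's r -0.08), to its distance from the first gene (0.11 and 0.20) or to the length of the gene on the chromosome (0.03 and 0.01). Genes are not independent replicates, and all points share the same 8 libraries.

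The list holds 3 beta-tubulins, the subunits that pair with alpha-tubulin to build microtubules. TUBB, the main beta-tubulin of dividing cells, measured 1146.6, 994.0, 1273.6 and 1220.8 FPKM in WT and 607.9, 585.7, 601.4 and 456.1 in C6 (-1.04, SE 0.12). TUBB2B measured 144.0, 138.3, 108.1 and 130.6 against 77.5, 71.2, 68.3 and 70.1 (-0.84, SE 0.107). TUBB2A measured 46.1, 38.4, 52.8 and 51.3 against 37.0, 34.9, 36.9 and 23.3 (-0.51, SE 0.166). All 3 were lower in C6 without overlap, with TUBB2A the nearest to it. TUBB2A and TUBB2B, which lie side by side on the minus strand, have coding sequences of 1335 bases that differ at 24 positions (98.2% identical), with an identical run of 725 bases, so fragments from one can be counted for the other and the gap between their differences is uncertain. TUBB shares 84.6% of its coding sequence with TUBB2A. The 90 coding bases in which TUBB2A and TUBB2B differ most (coding positions 74 to 163, in exon 2 of 4 of each canonical transcript) are printed 5′ to 3′ to show how few letters separate these genes, with the 9 differing bases in capitals. TUBB2A lies here at chr6:3156047-3156136 and TUBB2B at chr6:3226564-3226653, both on the minus strand of GRCh38.
TUBB2A: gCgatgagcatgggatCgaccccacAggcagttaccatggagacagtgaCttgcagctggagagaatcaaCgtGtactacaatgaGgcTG
TUBB2B: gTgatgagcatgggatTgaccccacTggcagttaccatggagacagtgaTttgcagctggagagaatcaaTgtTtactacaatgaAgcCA

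By function, lower levels ran through groups of unrelated genes, and the genes named here as examples were picked after their values were seen. Each gene was placed in a single group, so a gene with a mitochondrial product may stand in another group. Counts per group, here and in the next paragraphs, stand beside 76.8% lower without overlap over the list and 8.39% over all genes. The list was chosen along a stretch of low values, and whether any group differed from the list was not tested. Of the 10 genes grouped here as mitochondrial, 8 were lower without overlap, with a median of -0.71 and a range from -0.99 to -0.52. TMEM14C, an inner-membrane protein of haem synthesis, measured 80.6, 78.3, 55.6 and 74.7 FPKM in WT and 37.9, 35, 36.4 and 33.5 in C6 (-0.99, SE 0.127). Its close relative TMEM14B measured 88.7, 81.5, 77.3 and 93.6 against 58.9, 54.5, 69.8 and 37.0 (-0.65, SE 0.173). Neither gene overlapped between the lines, although their coding sequences are 88.0% identical and fragments may be shared. LYRM4, a subunit of the iron-sulfur cluster assembly complex, was at -0.73, MCUR1, a regulator of mitochondrial calcium uptake, at -0.97, and MRS2, a mitochondrial magnesium channel, at -0.62. ALDH5A1, succinic semialdehyde dehydrogenase, was at -0.88, ACOT13, an acyl-CoA thioesterase, at -0.73, and FARS2, the mitochondrial phenylalanyl-tRNA synthetase, at -0.54.

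Of 9 genes of RNA processing and translation, 7 were lower without overlap (median -0.89, from -1.08 to -0.49). NOL7, a nucleolar protein, was at -1.04, CDKAL1, a tRNA-modifying enzyme, at -1.08, and EEF1E1, a subunit of the multi-tRNA synthetase complex, at -1.04. RPL10A, a protein of the large ribosomal subunit and with TUBB the most abundant transcript of the list, measured 1407.6, 1334.3, 1155.8 and 1274.6 FPKM in WT and 948.9, 953.3, 850.7 and 921.4 in C6. That was 71.0% of the WT mean (-0.49, SE 0.0897), with no overlap. SRSF3, a splicing factor, was at -0.61, and ABCF1, an ATPase of translation initiation, at -0.93.

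Of 9 chromatin and transcription genes, 5 were lower without overlap, with a median of -0.70 and the widest range after the serpins, from -1.15 (DAXX) to 0.28 (SOX4). EHMT2, the histone H3 lysine 9 methyltransferase G9a, was at -0.70, CDYL, a chromodomain corepressor, at -0.97, and E2F3, a cell-cycle transcription factor, at -0.89. The 4 genes of protein folding and quality control were all lower without overlap (median -0.93): BAG6, a chaperone of the tail-anchored protein pathway, was at -0.96, TXNDC5, a protein disulfide isomerase, at -0.75, FKBP5, an HSP90 cochaperone, at -0.91, and PSMG4, a proteasome assembly chaperone, at -1.08. So were the 4 of trafficking (median -1.05), among them FLOT1, a lipid raft protein, at -1.05, MYLIP, a ubiquitin ligase of the LDL receptor, at -1.04 and KIF13A, a kinesin motor, at -0.73. Of 6 genes of metabolism 4 were lower without overlap (median -0.52): TPMT, thiopurine methyltransferase, at -0.66, NQO2, a quinone reductase, at -0.61, GMPR, GMP reductase, at -0.58 and ELOVL2, an elongase of polyunsaturated fatty acids, at -0.46. Of 5 signalling genes 3 were lower without overlap (median -0.95), namely RIPK1, NEDD9 and RANBP9, a scaffold of the CTLH ubiquitin ligase (-0.95).

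Of the 13 overlapping genes, 7 had a difference nearer to the median than to 0. They were DUSP22, ECI2, an isomerase of fatty acid oxidation, RPP40, a subunit of ribonuclease P, PAK1IP1, SIRT5, a mitochondrial desuccinylase, JARID2, a cofactor of Polycomb repressive complex 2, and PIM1, a serine/threonine kinase. Their differences ran from -0.89 (RPP40) to -0.42 (PIM1). DUSP22 measured 22.1, 26.2, 14.8 and 16.7 FPKM in WT and 12.6, 15.9, 9.62 and 19.9 in C6, so that 2 of the 4 C6 libraries lay below the lowest WT library.

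6 genes escaped the drop, meaning that their difference was closer to 0 than -0.40, which is the median divided by 2, or was above 0. BTN3A2, a butyrophilin of gamma-delta T cell recognition, measured 7.15, 12.8, 3.89 and 5.56 FPKM in WT and 9.15, 10.5, 9.80 and 14.5 in C6 (0.61, SE 0.286). SOX4, an SRY-related transcription factor, measured 20.3, 32.4, 16.2 and 20.4 in WT and 24.6, 26.1, 19.8 and 38.1 in C6 (0.28, SE 0.231), and 0.11 without C6 replicate 4. These were the 2 genes with a difference above 0, and both overlapped with WT. TFAP2A, the transcription factor AP-2 alpha, measured 3.41, 6.63, 3.63 and 2.86 in WT and 3.91, 3.31, 3.05 and 4.00 in C6 (-0.12, SE 0.218). HIVEP1, a zinc finger transcription factor, measured 1.70, 2.36, 3.00 and 1.96 in WT and 2.05, 1.75, 1.41 and 2.10 in C6 (-0.19, SE 0.186). TFAP2A and HIVEP1 were the least abundant of the genes compared. BPHL, a serine hydrolase that activates prodrugs, measured 18.5, 15.1, 6.48 and 14.6 in WT and 10.2, 11.1, 12.4 and 10.8 in C6 (-0.19, SE 0.259), and its overlap came from WT replicate 3 alone. Without that library BPHL was at -0.49 and no longer escaped. GLO1, glyoxalase I, which removes methylglyoxal, measured 221.5, 195.1, 180.7 and 203.5 in WT and 189.0, 186.8, 197.9 and 156.3 in C6 (-0.13, SE 0.104).

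The genes next to an escaping gene varied. SOX4 lies between CDKAL1 (-1.08) and MRS2 (-0.62), its nearest compared genes, and BTN3A2 between HIST1H2BD (-0.30, SE 0.344) and BTN2A2 (-0.67). HIVEP1 has TMEM170B (-0.74) on its telomeric side and the pseudogene RPL15P3 (0.08, SE 0.308) on the other. TFAP2A lies between SLC35B3 (-0.26) and its antisense gene TFAP2A-AS1 (-0.05, SE 0.281). TFAP2A-AS1 overlaps TFAP2A, and no source used here says that strand was used in counting, so reads of the pair cannot be told apart. BPHL lies between RIPK1 (-1.26) and TUBB2A (-0.51). GLO1 lies next to BTBD9 (-0.44) and SAYSD1 (-0.12), at the edge of the stretch.

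Whether a gene escaped depended on the line it was compared with. Relative to C1 to C5, which like C6 carry NUP58 mutations, the median of the list was -0.77, and BTN3A2 alone stood above 0 (0.40). On that reference SOX4 was at -0.51, TFAP2A at -0.37, BPHL at -0.33, HIVEP1 at -0.32 and GLO1 at -0.06. Relative to EV, the median was -0.81, with TFAP2A at 0.35, SOX4 at 0.26, BTN3A2 at 0.80, HIVEP1 at -0.01, GLO1 at -0.16 and BPHL at -0.47. SOX4 thus changed sides with the reference. By the same measure, closer to 0 than the median of that reference divided by 2, 6 genes escaped relative to C1 to C5 (TPMT, at -0.30, in place of SOX4). Relative to EV it was 8, without BPHL and with DUSP22 (-0.38), JARID2 (-0.37) and PIM1 (-0.20). When single libraries were left out, 5 genes (without WT replicate 3) to 11 (without WT replicate 2) escaped, 9 of them without C6 replicate 3, where DUSP22 was at -0.28. TFAP2A, HIVEP1, BTN3A2 and GLO1 escaped under each of these references and omissions. From the highest mean to the lowest, SOX4 measured 43.3 ± 11.6 FPKM (C5), 43.3 ± 9.23 (C1), 39.4 ± 18.7 (C3), 36.7 ± 5.16 (C2), 35.2 ± 17.1 (C4), 27.1 ± 7.75 (C6), 22.3 ± 6.99 (WT) and 22.1 ± 3.46 (EV), each as mean and SD of 4 libraries. BTN3A2 was highest in C5 (13.2 ± 3.70) and C6 (11 ± 2.38) and between 6.23 and 7.72 on average in the other lines.

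**Figure D4:**
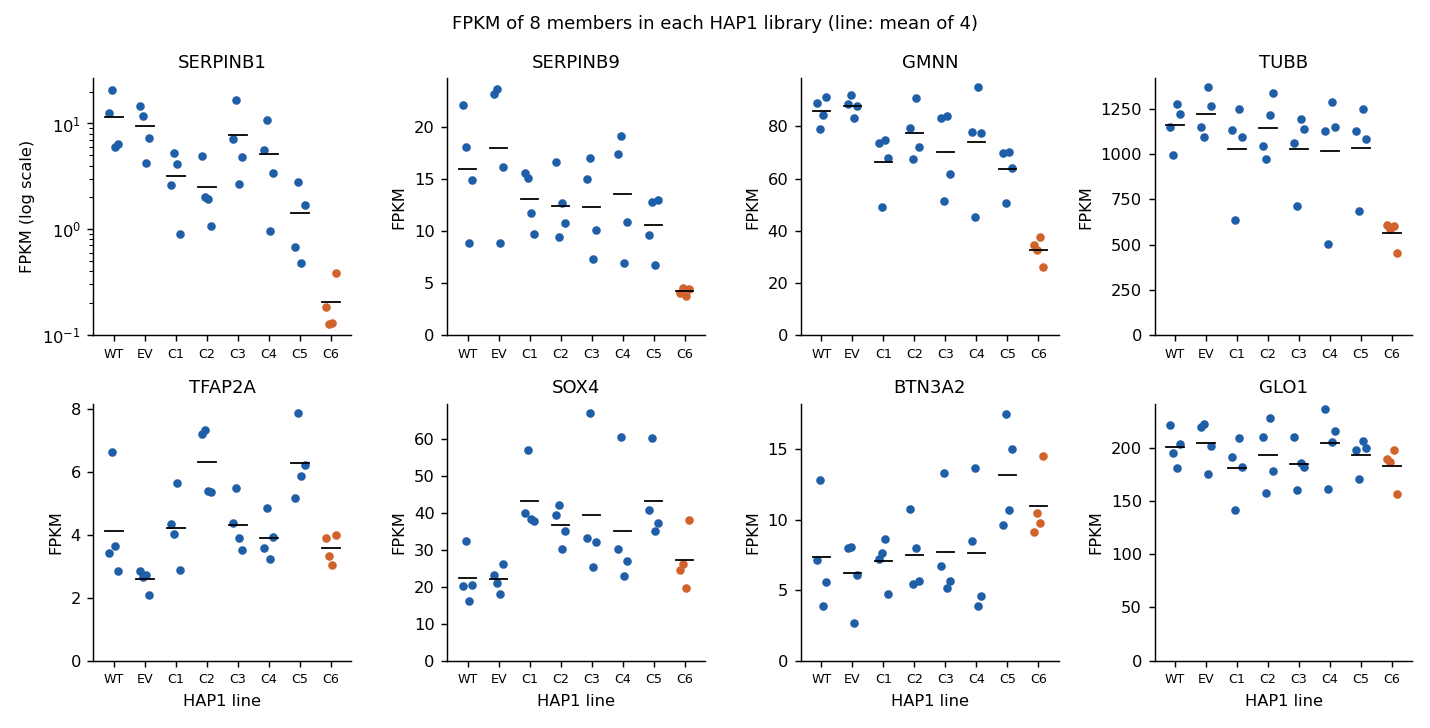
FPKM of 8 short-arm genes in every HAP1 library, on a log axis for SERPINB1 and on linear axes from 0 for the others, with a black line at the mean of 4 and C6 in orange. By line mean, SERPINB1 (0.205), SERPINB9 (4.22), GMNN (32.8) and TUBB (562.8) are lowest in C6, while TFAP2A, SOX4, BTN3A2 and GLO1 overlap with WT. For TUBB, C4 replicate 2 (503.5) lies within the range of C6.

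3 genes of the list did not reach a mean of 1 FPKM over the C6 and WT libraries. PHACTR1, a regulator of actin and protein phosphatase 1, and ID4, an inhibitor of basic helix-loop-helix factors, were listed at 0 in all 4 WT libraries and at 0.0531 or less in C6. ATXN1, ataxin-1, a transcriptional cofactor, measured 0.353, 0.629, 0.556 and 0.247 FPKM in WT and 0.581, 0.695, 1.26 and 0.857 in C6, with overlap between the lines. At the limit of 1 FPKM, ATXN1 with a mean of 0.648 fell just outside and HIVEP1 with 2.04 was the first gene inside.

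Promoter sequences of 57 of the 59 genes were found in RefSeq (GRCh38.p14), from 250 bases before to 50 after the start site. HIVEP1 and DAXX were not matched in the table used here. These windows held a median of 30 CpG dinucleotides, where a cytosine can be methylated, against 14 over all 27305 promoters of the same length. That full set was not limited to genes with RNA in HAP1, whereas most of the list was compared here. For the list the entry nearest to the GENCODE 5′ end was taken, and for other genes the first entry. Gaps to the full set, here and for the motifs below, therefore cannot be ascribed to this stretch. The escaping genes held 33 (BPHL), 18 (TFAP2A), 15 (GLO1), 8 (SOX4) and 5 (BTN3A2), and SERPINB1 held 27. Low numbers were also found in genes that did not escape, such as FKBP5 (3), CDYL (4), NEDD9 (6) and CDKAL1 (11), picked after their values were seen. The letters GGGCGG of a GC box, on either strand, were in 77.2% of the 57 windows and 44.6% of all, CCAAT was in 38.6% and 35.7%, and TATAAA in 15.8% and 12%. A match is a description of the letters and not of binding. The 120 bases before the start of SERPINB1, the gene with the largest drop, and of SOX4 and BTN3A2, the 2 genes above 0, are printed 5′ to 3′ on the strand of the gene, with every CpG in capitals, and end before the 5′ end of the gene in both RefSeq and GENCODE. They lie at chr6:2841960-2842079 (minus strand) for SERPINB1, chr6:21593631-21593750 (plus) for SOX4 and chr6:26365039-26365158 (plus) for BTN3A2, and hold 9, 5 and 2 CpG.
SERPINB1: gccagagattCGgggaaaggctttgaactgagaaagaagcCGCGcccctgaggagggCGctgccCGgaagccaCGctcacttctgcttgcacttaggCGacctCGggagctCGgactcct
SOX4: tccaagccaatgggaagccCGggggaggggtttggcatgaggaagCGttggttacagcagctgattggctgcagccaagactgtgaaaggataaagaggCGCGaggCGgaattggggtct
BTN3A2: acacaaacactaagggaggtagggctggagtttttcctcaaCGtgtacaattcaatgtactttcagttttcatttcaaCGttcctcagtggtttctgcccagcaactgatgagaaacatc

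The other HAP1 lines share the WT libraries with C6 and are set beside it here. No C6 library enters these tests, but the WT libraries by which the genes were chosen do, so values with EV as the reference are given after them. From the highest to the lowest, the median of the 56 genes was 0.020 (C5), 0.006 (EV), -0.021 (C2), -0.037 (C4), -0.042 (C3) and -0.073 (C1), and the median of all genes in these lines lay between -0.035 and 0.007. With limma and Benjamini-Hochberg adjustment over all genes, at an adjusted p under 0.05, the genes of the list called were 0 in EV, C1, C2, C3 and C4, where 0.038%, 0.479%, 0.732%, 0.0911% and 0.16% of all genes passed. Without adjustment, 1, 7, 7, 1 and 1 of the 56 had a p under 0.05, as did 2.08%, 11.7%, 12.7%, 4.8% and 6.63% of all genes. In C5 3 of the 56 were called, where 7.55% of all genes were, and 10 had an unadjusted p under 0.05, as did 23.4% of all genes. SERPINB1 fell by 2.31 (SE 0.41, adjusted p = 0.00851), SOX4 rose by 0.94 (SE 0.224, adjusted p = 0.0333) and DTNBP1 fell by 0.39 (SE 0.104, adjusted p = 0.0496) in limma's fit. SERPINB1 alone was called in 7 of the 8 fits that left out 1 library of C5 or WT, and without WT replicate 2 the calls were 6 (SERPINB1, TFAP2A, GMPR, SOX4, GMNN and BTN3A2), where 9.05% of all genes were called. Without that library SOX4 was also called in C1 (1.14, adjusted p = 0.0279 in limma) and C2 (0.91, adjusted p = 0.0338), where 0.42% and 0.712% of all genes were.

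With EV in place of WT, limma called 1 gene of the list in C1, 2 in C2, 0 in C3 and C4 and 7 in C5, where it called 1.59%, 1.89%, 0.205%, 0.321% and 14.4% of all genes. SOX4 rose in C1 (0.93, adjusted p = 0.0211), C2 (0.71, adjusted p = 0.0373) and C5 (0.92, adjusted p = 0.00738). SERPINB1 fell in C5 (-2.11, adjusted p = 0.00573), and its values of -1.33 in C1 (adjusted p = 0.151) and -1.58 in C2 (adjusted p = 0.0643) did not pass. The other calls were TFAP2A in C2 (1.02, adjusted p = 0.013) and TFAP2A, NEDD9, GMPR, GMNN and BTN3A2 in C5, while DTNBP1 was not called there (-0.29, adjusted p = 0.0655).

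Replicate numbers paired the libraries of EV and C1 to C4 with those of WT, and with the number as a block in limma's fit against WT SERPINB1 and SOX4 were called in more clones. The blocked fits called 2 of the 56 genes in C1, C2 and C4 each, 1 in C3 and 0 in EV, where they called 1.5%, 1.23%, 2.43%, 0.622% and 0.0456% of all genes. SOX4 rose in all 4 clones (C1 0.95, adjusted p = 0.0113, C2 0.73, adjusted p = 0.0424, C3 0.74, adjusted p = 0.0138, C4 0.58, adjusted p = 0.0274). SERPINB1 fell in C1 (-1.53, adjusted p = 0.0372), C2 (-1.79, adjusted p = 0.0304) and C4 (-1.13, adjusted p = 0.0234), and was at -0.58 in C3 (adjusted p = 0.115). In C5, whose numbers did not pair with WT, the same fit called 7 of the 56 and 16.3% of all genes. In EV the blocked values were 0.02 for SOX4 (adjusted p = 0.988) and -0.21 for SERPINB1 (adjusted p = 0.864).

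**Figure D5:**
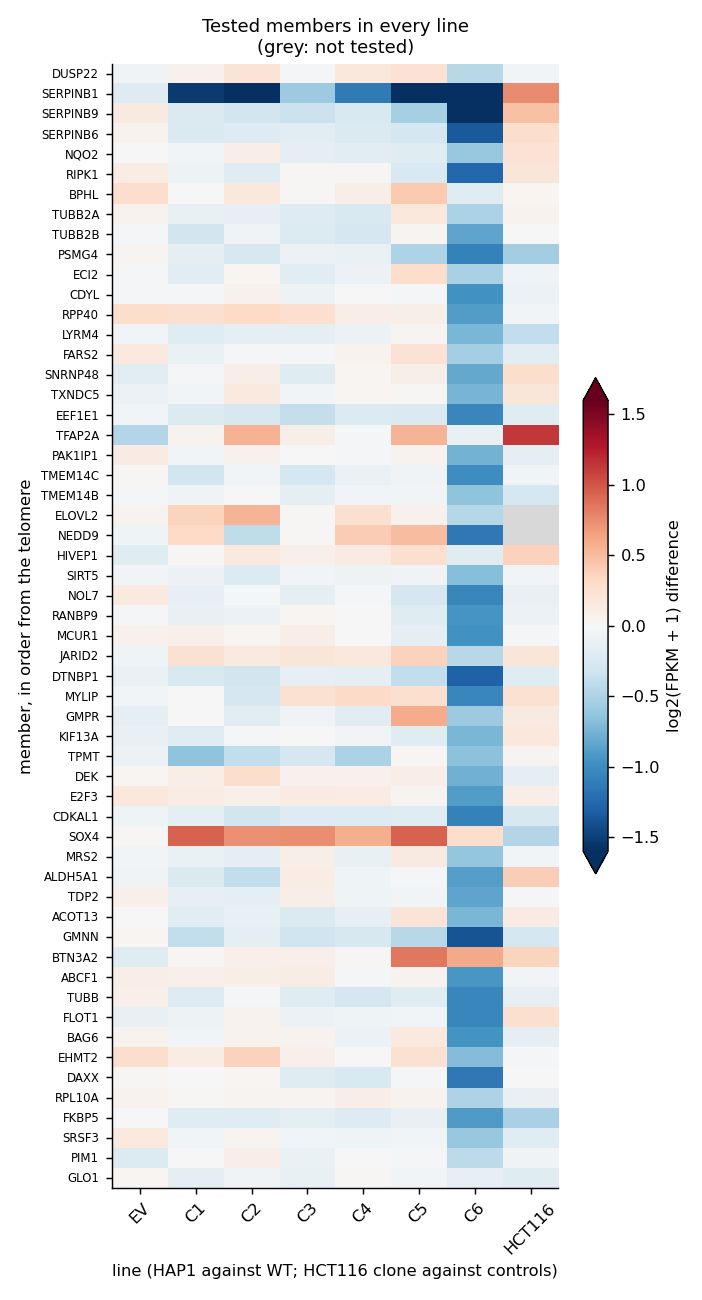
Difference in log2(FPKM + 1) of the 56 compared short-arm genes, from the telomere at the top to GLO1 at the bottom, in 7 HAP1 lines against WT and in the HCT116 clone against its controls, with a colour scale from -1.6 (blue) to 1.6 (red) and grey for genes not tested in HCT116. The C6 column is blue for nearly all rows (median -0.79), SERPINB1 is blue in C1 to C6 and SOX4 is red in C1 to C5.

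HCT116 controls held 55 of the 59 genes at a mean of 1 FPKM or more, and ELOVL2, NEDD9, PHACTR1 and ID4 below it. Their median difference in the HCT116 clone was -0.046, and limma called 0 of 55 at an adjusted p under 0.05, as it called 0.0% of all 12960 genes, while 4 of the 55 had an unadjusted p under 0.05, as did 10.4% of all genes. With all libraries numbered 3 left out, limma called 4 genes of the list (5.92% of all genes): SERPINB9 rose by 0.98 (adjusted p = 0.0119), PSMG4 fell by 0.91 (adjusted p = 0.00994), LYRM4 fell by 0.56 (adjusted p = 0.0154) and FKBP5 fell by 0.77 (adjusted p = 0.00331). The same 4 genes were called when the clone library numbered 3 alone was left out (4.27% of all genes), and in the full fit their adjusted p in limma lay between 0.353 and 0.561. SERPINB1 overlapped in this line, from 13.7 to 67.1 FPKM in the clone and from 10.2 to 66.7 in the controls (0.76, SE 0.48, adjusted p = 0.586 in limma).

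The members were also set beside genes outside the short arm that work with them. A list of 82 partners, such as other subunits of the same complexes and close relatives, held 75 compared genes, with a median of -0.043 in C6. Of these 75, 9 were lower and 4 higher than WT without overlap, against 8.39% and 10.6% of all genes. Overlap with WT was thus about as common among the partners as over all genes. TUBB3, a beta-tubulin of neurons on chromosome 16, was lowest at -0.92 (85.4 FPKM in WT, 43.8 in C6), and TUBA1C, an alpha-tubulin, was at -0.35. Of the partners, 2 lie on chromosome 13, and both were among the lower ones: POMP, the proteasome maturation protein, at -0.81 and MICU2, a regulator of the mitochondrial calcium uniporter, at -0.77. ATRX, which works with DAXX to place histone H3.3, was at 0.26 without overlap where DAXX was at -1.15, and EPRS, a partner of EEF1E1 in the multi-tRNA synthetase complex, was at 0.49 where EEF1E1 was at -1.04. ZCRB1, a protein of the minor spliceosome like SNRNP48 (-0.82), was highest at 0.65. Other partners stood below 0 like their members. Among the DNA licensing partners of GMNN (-1.38), CDC6 was at -0.74, ORC1 at -0.44 and CDT1 at -0.34, while MCM2 was at 0.39. Of the H3.3 genes listed with DAXX, H3F3B was at -0.42 and H3F3A at 0.16. All of these overlapped with WT. Whether partners and members moved apart was not tested.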

How the data were processed

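The authors sequenced TruSeq libraries of total RNA, trimmed adaptors from the reads, aligned them with STAR (GRCh38.p13), estimated gene levels with RSEM, and deposited 1 table of FPKM values for 57507 genes in 47 libraries, with no further normalization between libraries. Versions are not given in the sources used here. Expected counts were not used, and shifts of very abundant transcripts can move other FPKM values. Libraries were grouped by their labels. For 2 HCT116 controls the label fields contradict each other, so all 11 controls were pooled. Members and lists were chosen with earlier results of these data known.

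Values were analysed as log2(FPKM + 1) for genes whose FPKM averaged 1 or more in the libraries compared, with limma 3.58.1 in R 4.3.3 (lmFit, eBayes with trend) and Benjamini-Hochberg adjustment over all genes, 4 libraries against 4 or against the 11 controls. The fit was tested on simulated data. C6 against WT gives differences and SE only. By rule, the genes named with values were those not compared, those that escaped, the 8 largest drops, the 4 nearest to the median, those called in other lines, the serpin, tubulin and TMEM14 genes, the first and last genes with 2 genes at either end, and the neighbours of escaping genes, nearest by gene body. Further members are given as examples of their functional group, picked after their values were seen. Positions came from GENCODE 44 (98.1% of genes matched). Replicate numbers were taken as pairing where libraries with the same number deviated together from their lines (correlation across genes over 0.1 in each of 4 pairs), which held for EV and C1 to C4 but not for C5 (lowest -0.0318) or C6 (lowest -0.365). Tables, sequences and figures were made with Python 3.11.15, pandas 2.3.3 and matplotlib 3.10.9.

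Alternatives were EV or C1 to C5 as the reference, no filter, a pseudocount of 0.1, scaling to TPM or by median ratios, a replicate block, one fit over all HAP1 lines, an unadjusted threshold, and each library left out in turn.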

Additional observations from a re-analysis of the deposited data

Results flagged for a closer look

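Within the C6 libraries, TUBB2A at 23.3 FPKM and TUBB at 456.1 FPKM in replicate 4 lay far below the 3 other replicates, and within WT, TDP2 at 22.5 FPKM lay far below in replicate 2. These were 3 of 56 sets of 4 libraries examined for a library apart from the others, and chance marks about 1 set in 20.

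Among the named genes, NEDD9 was higher than the WT mean in all 4 libraries of C5, by 0.49 on average, and lower in all 4 of C6. DEK was higher in all 4 libraries of C2, by 0.28 on average, and lower in all 4 of C6. These differences between clones were not tested.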

How the results depend on the processing

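For C6 the median difference (-0.793) was -0.759 with no filter on low values, -0.860 with a pseudocount of 0.1 and -0.829 after scaling by median ratios, and ran from -0.816 to -0.774 when each library was left out. The count of genes lower without overlap (43) was 28 with the 20 libraries of C1 to C5 as reference, an alternative chosen after the data were seen. On that reference C6 had to lie below more libraries than with WT, and the share of all genes is not given. When each library was left out the count was 43 to 47, and for the same genes it could not fall. For C1, the count of genes called (0) was 1 with EV as reference, 2 in one fit over all HAP1 libraries, 2 with a replicate block and 1 at an unadjusted p under 0.01 with a fold change over 2. For C2 (0) these were 2, 2, 2 and 1. For C3 (0) the replicate block gave 1. For C4 (0) the one fit gave 1 and the replicate block 2. Over all genes, EV as reference called 208 in C1 and 247 in C2. The one fit called 437 in C1, 536 in C2 and 135 in C4. The replicate block called 197 in C1, 161 in C2, 82 in C3 and 319 in C4. For the unadjusted threshold the share of all genes was not taken. For C5 (3) EV as reference gave 7 (14.4% of all genes called), the replicate block 7 (16.3%) and the unadjusted threshold 1. For the HCT116 clone (0), leaving out all libraries numbered 3 gave 4. Leaving out each library gave 0 to 1 in C1 and C2 (1, SOX4, without WT replicate 2), 0 in C3, C4 and EV, 1 to 6 in C5 (6 without WT replicate 2) and 0 to 4 in HCT116, where 4 came without clone replicate 3. The replicate block changed no other call. In C5 the same numbers did not pair the libraries. The sign of TFAP2A in C6 turned positive with EV as reference and without WT replicate 2. The causes were not tested. The number of fragments behind FPKM is unknown, which limits statements on the least abundant genes.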
